A study of Mus musculus with 8 samples.

Results

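PLA and PL12 are 2 mouse tumour cell lines of a study of lung squamous cell carcinoma (LUSC), a cancer of squamous, keratin-rich cells, and they are compared here across all genes as PLA minus PL12. The comparison is between 4 of the 8 RNA-seq libraries of the study, 2 for each line. It covers 18648 genes tested of 55487 in the deposited expected-count table. The filter, the scaling and the spread behind the p-values came from all 8 libraries. The pair was chosen by measured values: PLA read almost no Ackr3 and PL12 did, and both lines had closely agreeing libraries. The Ackr3 level and the small spread within the lines are therefore given as a description and support nothing. The calls of the comparison describe these 4 libraries, and the same measure in PLA4 and PL1, the lines of the other 4 libraries, is set beside them.

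The study is about loss of ACKR3 in LUSC lines that were derived from genetically engineered mice. PLA and PL12 are each a single line, and the names PL and PLA are not spelled out in the labels, which give no alleles, promoter, sex, age or treatment. Neither do they say that a line's 2 libraries were grown apart, so p-values measure only the spread between libraries, which may be technical. With 1 line on each side, the loss of Ackr3 and any other difference between the lines cannot be told apart. RNA was purified with a column kit, copied into cDNA with a template-switching kit that amplifies by PCR, and made into libraries by tagmentation.

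ACKR3 is an atypical chemokine receptor. It binds CXCL12 and CXCL11, recruits arrestins in place of G proteins, removes its ligands from the surroundings by uptake, and has been described as a scavenger of adrenomedullin. Squamous lung tumours carry a programme of basal epithelium in which the transcription factors p63 and SOX2 are active, basal keratins are abundant and desmosomes hold cells together, whereas lung adenocarcinomas more often keep the lung lineage factor NKX2-1.

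Library totals of PLA were 125621393 and 120258548 counts, and those of PL12 were 48857960 and 107564405 counts. Pearson's r across genes on the log2 scale was 0.99934 within PLA, with 8 genes more than 2-fold apart, and 0.99716 within PL12, with 64 such genes. Within PLA4 and PL1 these figures were 0.97415 with 1416 genes and 0.97792 with 1174 genes, and between PLA and PL12 r lay between 0.92966 and 0.93053. Genes are not independent replicates, so these coefficients only describe the libraries. The smallest level that 3 counts could show was between 0.0208 and 0.0614 CPM (counts scaled to the library size) across the 8 libraries, and such limits cover counting error only.

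Ackr3 (GRCm38, chromosome 1, positions 90203980 to 90216751, plus strand) read 0.0488 and 0.0254 CPM in PLA and 25.3 and 26.3 CPM in PL12. The PLA values rest on 9 counts over both libraries. Gene-level counts do not show which exons the reads came from. The other pair had the same order of levels, with 0.387 and 0.229 CPM in PLA4 and 86.3 and 33.2 CPM in PL1. Stk11, a tumour suppressor kinase, was present in both lines at 21.5 and 21.6 CPM in PLA and 15.4 and 20.9 CPM in PL12 (log2 difference 0.25, SE 0.206, edgeR adjusted p = 0.383).

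Of 12 tested genes that encode Ackr3, its ligands, the related receptors and their modulators, 1 was higher and 3 were lower in PLA, and 1 of the 3 was Ackr3 itself, by which the pair was chosen. The shares were 8.33% higher and 25% lower, beside 20.4% and 17.3% of all tested genes. Adm, which encodes adrenomedullin, measured 26 and 24.9 CPM in PLA and 4.38 and 4.13 CPM in PL12 (log2 difference 2.58, SE 0.793, edgeR adjusted p = 0.0437). Ramp3, which encodes a partner protein of the adrenomedullin receptors, was lower in PLA, at 7.44 and 6.58 CPM in PLA against 22.6 and 26.2 CPM in PL12. The chemokine ligand gene Cxcl12 was near the limit of counting in PLA, at 0.00813 and 0.00846 CPM in PLA and 0.184 and 0.119 CPM in PL12, and missed the threshold (edgeR adjusted p = 0.227). These counts were 0 higher and 1 lower without either PLA or either PL12 library. Adm did not keep this order in the other pair, where it read 30.2 and 58.9 CPM in PLA4 and 13.3 and 80.8 CPM in PL1.

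Across the transcriptome, 3804 genes were higher and 3231 were lower in PLA than in PL12 at a Benjamini-Hochberg adjusted p under 0.05 (edgeR quasi-likelihood test, 1 mean for each of the 4 lines). These were 20.4% and 17.3% of the genes tested, or 37.7% in either direction, and with a change of at least 2-fold also required the counts were 2511 and 2183, or 13.5% and 11.7%. The absolute log2 difference had a median of 0.747 over all tested genes and 1.46 over the called ones, and 1128 called genes differed by at least 16-fold. A fit on these 4 libraries alone called 6212 of 17415 genes higher, or 35.7%, and 6204 lower, or 35.6%. With 1 PLA library left out the counts were 1282 or 1299 higher and 1177 or 1170 lower, and with 1 PL12 library left out they were 1481 or 1477 higher and 1503 or 1466 lower. Below, a count "without either" library of a line means with 1 of its 2 libraries left out at a time.

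**Figure D1:**
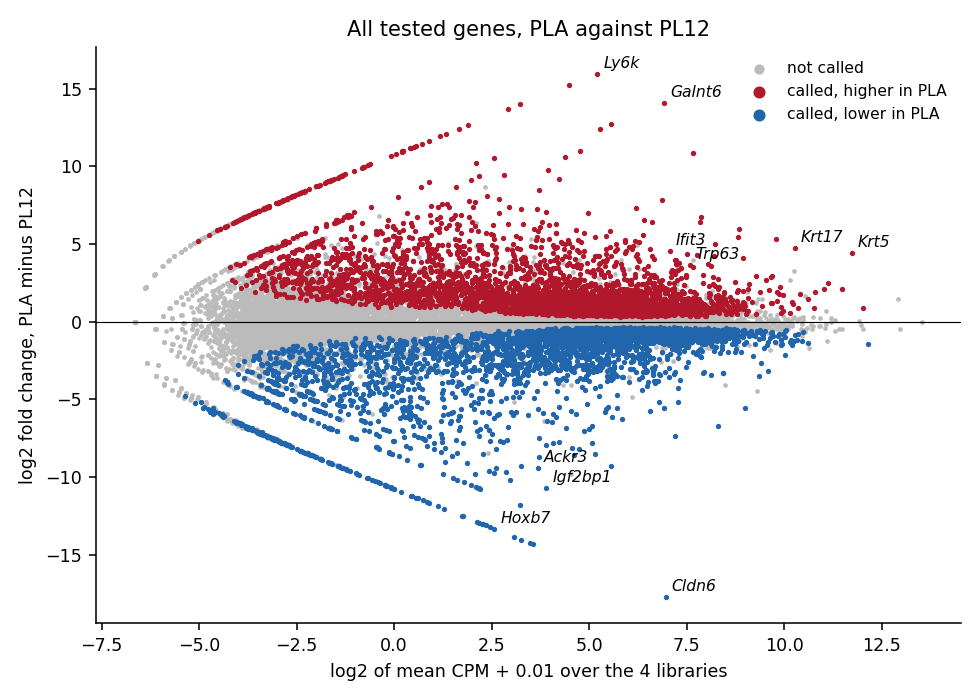
Each point is a gene: the horizontal axis is the log2 of its mean level over the 4 libraries (CPM plus 0.01), the vertical axis the fitted log2 difference, PLA minus PL12. Called genes (3804 higher, 3231 lower) spread over the whole range of levels, and Krt5, Ackr3 and other genes of the text are marked.

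The largest differences were of genes read in one line and close to absent from the other. Ly6k, which encodes a small surface protein of the LY6 family, read 75.4 and 72.9 CPM in PLA and 0 and 0 CPM in PL12, which makes it at least 3900-fold higher in PLA when the PL12 libraries together are set to the limit of 3 counts. Cyp2a5, a xenobiotic-metabolizing cytochrome P450 with close paralogs, measured 45.6 and 43.6 CPM in PLA and 0 and 0 CPM in PL12, at least 2345-fold higher. Neither gene had a single count in PL12. Pdpn, which encodes podoplanin, a surface glycoprotein of basal squamous cells and lymphatic endothelium, read 78.1 and 76.1 CPM in PLA and 0.0205 and 0.00919 CPM in PL12 (edgeR adjusted p = 0.0131). Galnt6, which encodes an enzyme that starts O-linked glycosylation, read 251 and 233 CPM in PLA and 0 and 0.0184 CPM in PL12. Sncg, which encodes gamma-synuclein, measured 416 and 395 CPM in PLA and 0.307 and 0.165 CPM in PL12. Gdf10, Slc47a1, Tmem45a, Csf2rb, Snx20, Mmrn2, Aqp4, Agr2 and Xlr3a were also among the 15 largest rises.

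On the other side, Cldn6, which encodes a tight junction claudin of embryonic epithelium, read 0 and 0 CPM in PLA and 242 and 257 CPM in PL12, at least 20280-fold lower in PLA at the same limit. Tbx18, a T-box transcription factor of developing mesenchyme, measured 0 and 0 CPM in PLA and 24.6 and 22.4 CPM in PL12. Sox17, an endoderm transcription factor, read 0 and 0 CPM in PLA and 9.72 and 10.6 CPM in PL12, and Eomes, a T-box factor of early embryonic and trophoblast cells, 0.0325 and 0 CPM in PLA and 11.8 and 12.7 CPM in PL12. All 4 were read at 9.72 CPM or more in both PL12 libraries and at 0.0325 CPM or less in both PLA libraries. Snrpn, an imprinted gene, was at 0 in PLA and at 15.8 and 18.1 CPM in PL12, whereas PLA4 was split, with 0.0232 and 6.36 CPM in PLA4 and 42.1 and 27.6 CPM in PL1. Pcbd1, Prrg3, Rims2, Ildr2, Susd4, Adcy1, Dgkk, Hoxb7, Igf2bp1 and Ackr3 itself made up the rest of the 15 largest falls.

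PLA carried more RNA of the basal squamous programme than PL12. Of 32 members tested from 32 listed, 22 were higher and 2 were lower in PLA, with a median log2 difference of 2.03. Trp63, which encodes the p63 factor of basal epithelium, read 352 and 360.4 CPM in PLA and 29.2 and 26.3 CPM in PL12 (log2 difference 3.69, SE 0.167, edgeR adjusted p = 0.000292). Its PLA levels were more than 10 times those of PL12, and no libraries overlapped. Over all tested genes, both PLA libraries were above both PL12 libraries for 44.1% and below them for 39%. Sox2, the other squamous lineage factor, was 2.24-fold higher, at 27.6 and 25.2 CPM in PLA against 10.1 and 12.6 CPM in PL12 (edgeR adjusted p = 0.0025). The basal keratin gene Krt5 measured 6542 and 6440 CPM in PLA and 284 and 315 CPM in PL12 (log2 difference 4.44, SE 0.385, edgeR adjusted p = 0.000851). Krt17, a keratin of stressed and basal epithelium, read 2465 and 2338 CPM in PLA and 80.5 and 100.2 CPM in PL12 (edgeR adjusted p = 0.000469), and Krt14, the pairing partner of keratin 5, 3429 and 3288 CPM in PLA and 759 and 773 CPM in PL12. For each of these 5 called genes both PLA libraries were above both PL12 libraries, which adds nothing to the calls. Ngfr, a receptor that marks basal airway cells, had the largest difference of the list in this direction, at 34.3 and 36.3 CPM in PLA against 0.491 and 0.404 CPM in PL12, 81.8-fold (edgeR adjusted p = 0.00293).

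The members that went the other way were Egfr, at 249 and 259 CPM in PLA against 480.4 and 433 CPM in PL12, and Ovol1, at 7.21 and 7.59 CPM in PLA against 16.2 and 15.1 CPM in PL12. Krt16, a keratin of activated epidermis, did not pass the threshold, at 10.8 and 9.85 CPM in PLA and 11.6 and 12.8 CPM in PL12 (edgeR adjusted p = 0.815), although PLA4 and PL1 read far more of it, with 369.6 and 1118 CPM in PLA4 and 252 and 59.5 CPM in PL1. The count of 22 higher members was 14 or 16 without either PL12 library. PL12 was the line with low squamous levels among the 4: the mean log2(CPM + 1) over the list was 4.92 and 4.91 in PL12, 6.60 and 6.62 in PLA, 6.87 and 6.76 in PLA4, and 6.43 and 6.24 in PL1. In PLA4 and PL1, Trp63 read 306 and 386 CPM in PLA4 and 381 and 373 CPM in PL1, so the libraries other than those of PL12 lay between 306 and 386 CPM.

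Desmosome and hemidesmosome genes, whose products anchor epithelial cells to each other and to the basement membrane, were higher in PLA for 8 of 21 tested members and lower for none. Dsg3, a desmosomal cadherin of stratified epithelium, read 484 and 501 CPM in PLA and 40.7 and 34.2 CPM in PL12 (log2 difference 3.72, SE 0.263, edgeR adjusted p = 0.000543). Its partner cadherin gene Dsc3 had no count in PL12 and 6.34 and 6.38 CPM in PLA, at least 334-fold higher. Perp, a desmosomal p63 target, was 3.56-fold higher (1487 and 1421 CPM in PLA and 447 and 392 CPM in PL12), and Col17a1, a hemidesmosomal collagen, 7.31-fold (1420 and 1408 CPM in PLA and 199.6 and 191 CPM in PL12). The count of 8 was 5 or 6 without either PLA library, 4 or 5 without either PL12 library and 14 or 15 without either PL1 library. Dsc3 and Perp were also higher in PLA4 than in PL1, at 15.6 and 53.5 CPM in PLA4 and 0.0230 and 0.0353 CPM in PL1 for Dsc3 (edgeR adjusted p = 0.00728) and 3704 and 4327 CPM in PLA4 and 1199 and 957 CPM in PL1 for Perp (edgeR adjusted p = 0.00699).

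Terminal differentiation genes were split. Of 24 tested cornified envelope genes, 8 were higher and 3 were lower in PLA. The shares were 33.3% and 12.5%, beside 20.4% and 17.3% of all tested genes. Sprr1a and Ivl, which encode cross-linked envelope proteins, were higher, at 710.3 and 691 CPM in PLA against 181 and 190.3 CPM in PL12 for Sprr1a and 32.4 and 33.3 CPM in PLA against 6.73 and 5.72 CPM in PL12 for Ivl. Lor, the gene of the late envelope protein loricrin, was lower at 0.195 and 0.195 CPM in PLA against 1.68 and 2.17 CPM in PL12, as were Krt80 and Klk10. The 8 higher calls were 3 without either PLA library and 2 or 3 without either PL12 library, and the 3 lower ones 5 or 6 without either PLA4 library.

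**Figure D2:**
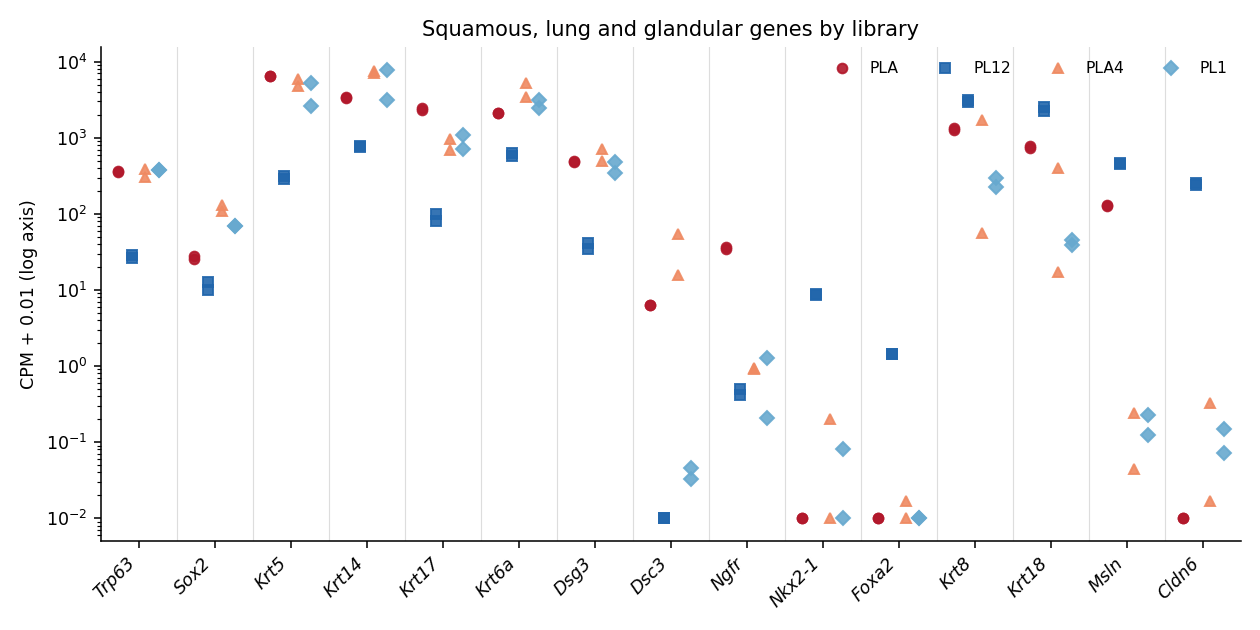
The vertical axis is CPM plus 0.01 on a log axis, and each point is 1 library of PLA, PL12, PLA4 or PL1 for the gene named below it. For Trp63, Krt5, Krt17 and Dsg3 the PL12 points lie below those of the other 3 lines, and for Nkx2-1 and Cldn6 only PL12 is above 1 CPM.

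Nkx2-1 and Foxa2, factors of the lung lineage, showed the opposite order. Nkx2-1, which specifies lung epithelium, had no count in either PLA library and 8.86 and 8.69 CPM in PL12, at least 703-fold lower in PLA. Foxa2, its partner factor in foregut endoderm, was also at 0 in PLA and at 1.41 and 1.42 CPM in PL12. Foxa1 did not show this order, at 205 and 215 CPM in PLA against 157 and 145 CPM in PL12 (edgeR adjusted p = 0.0763). Msln, which encodes the surface protein mesothelin, read 129 and 127 CPM in PLA and 454 and 470.1 CPM in PL12 (edgeR adjusted p = 0.0313). These 3 were the lower calls among 26 tested lung and glandular genes, while 5 were higher. The shares were 11.5% lower and 19.2% higher, beside 17.3% and 20.4% of all tested genes. Hopx, a gene of type I alveolar and basal cells, was 31.7-fold higher at 102 and 99.2 CPM in PLA against 3.07 and 3.23 CPM in PL12, and the secretory genes Agr2 and Tff1 were higher as well. Aqp5 and Ager were the remaining higher calls, at 2.19 and 1.77 CPM in PLA against 0.184 and 0.175 CPM in PL12 for Aqp5. Ager read 0.910 and 0.990 CPM in PLA against 0.266 and 0.294 CPM in PL12. Sftpd read 9.6 and 9.7 CPM in PLA and 79.1 and 80.5 CPM in PL12 but missed the threshold (edgeR adjusted p = 0.128). Sftpb, Sftpc and Scgb1a1 were at or under 0.0244 CPM in every library. The simple-epithelium keratins did not pass the threshold: Krt8 read 1334 and 1275 CPM in PLA and 2938 and 3172 CPM in PL12 (edgeR adjusted p = 0.449) and Krt18 787 and 737 CPM in PLA and 2266 and 2572 CPM in PL12 (edgeR adjusted p = 0.286). The 5 higher calls were 1 without either PLA library and 1 without either PL12 library, and the 3 lower calls 1 without either PLA library, 1 without either PL12 library, 7 without either PLA4 library and 5 without either PL1 library.

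Both lines were epithelial by their junction genes. Cdh1, the gene of E-cadherin, measured 788 and 807 CPM in PLA and 724 and 631 CPM in PL12 (edgeR adjusted p = 0.295), and Epcam 417 and 404 CPM in PLA and 349.6 and 342 CPM in PL12 (edgeR adjusted p = 0.487). Of 27 tested junction and epithelial splicing genes, 4 were higher and 8 lower in PLA. The shares were 14.8% and 29.6%, beside 20.4% and 17.3% of all tested genes. Ehf, an epithelial ETS factor, was higher at 1068 and 1119 CPM in PLA against 162 and 126 CPM in PL12, and the scaffold gene Tjp1 was lower at 252 and 259.7 CPM in PLA against 475 and 417 CPM in PL12. Of 34 tested mesenchymal genes, 5 were higher (14.7%, beside 20.4% of all tested genes) and 2, Zeb2 and Tnc, were lower, the median log2 difference was -0.26, and the fit on the 4 libraries of the pair called 8 higher and 14 lower. Those higher included Snai2 at 73.8 and 68.9 CPM in PLA against 8.1 and 7.04 CPM in PL12 (log2 difference 3.24, SE 0.169, edgeR adjusted p = 0.00031) and the receptor kinase gene Axl at 548 and 547 CPM in PLA against 80.1 and 80.3 CPM in PL12. Snai2 is also a gene of basal epithelium, and Vim, which encodes the mesenchymal filament protein vimentin, was low in PLA, at 0.0244 and 0.0339 CPM in PLA and 10.1 and 11 CPM in PL12, but missed the threshold (edgeR adjusted p = 0.088). The 8 junction calls were 3 without either PLA library and 3 or 4 without either PL12 library, and the 5 mesenchymal ones 2 or 4 without either PL12 library.

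A run of Hox genes was at or near 0 in PLA and read in PL12. Hox genes encode the homeobox factors that give cells a position along the body axis, and of 18 tested, 10 were lower and none higher in PLA. The 10 comprised all 8 tested genes of the Hoxb cluster on chromosome 11, Hoxb2 to Hoxb9, together with Hoxa4 and Hoxa10, which were under 0.5 CPM in every library of the pair. Hoxb7 had no count in PLA and 11.4 and 12.3 CPM in PL12, at least 967-fold lower. Hoxb3 was at 0 in PLA and 6.47 and 7.04 CPM in PL12, at least 552-fold lower, and Hoxb4 read 0.0731 and 0.0339 CPM in PLA and 3.56 and 5.53 CPM in PL12. All 8 Hoxb genes were at or below 0.0731 CPM in both PLA libraries and at 1.35 CPM or more in both PL12 libraries. The count of 10 was 6 without either PLA library and 5 without either PL12 library. In the other pair Hoxb3 and Hoxb4 had the same order, at 0 and 0 CPM in PLA4 and 3.96 and 4.66 CPM in PL1 for Hoxb3 and 0.0155 and 0 CPM in PLA4 and 8.84 and 10.7 CPM in PL1 for Hoxb4, whereas Hoxb9 was higher in PLA4 than in PL1, at 14.6 and 32.5 CPM in PLA4 and 0 and 2.41 CPM in PL1.

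Genes of fetal tissue and imprinted genes were lower in PLA for 6 of 16 tested members and higher for none. Igf2bp1, an RNA-binding protein of fetal cells and many tumours, read 0.00813 and 0.0254 CPM in PLA and 29.9 and 30 CPM in PL12 (edgeR adjusted p = 0.000291), and 0.0852 and 0.0692 CPM in PLA4 and 10.4 and 10.9 CPM in PL1. Hmga2, a chromatin protein gene that let-7 microRNAs repress, was 55.6-fold lower at 0.869 and 0.804 CPM in PLA against 43.6 and 47.9 CPM in PL12. Cdkn1c, an imprinted inhibitor of cyclin-dependent kinases, was at 0 and 0.00846 CPM in PLA and 6.02 and 6.2 CPM in PL12. The remaining 3 were Lin28b, Mest and Grb10. For each of the 6 called genes both PLA libraries lay below both PL12 libraries, as for 39% of all tested genes, which adds nothing to the calls.

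**Figure D3:**
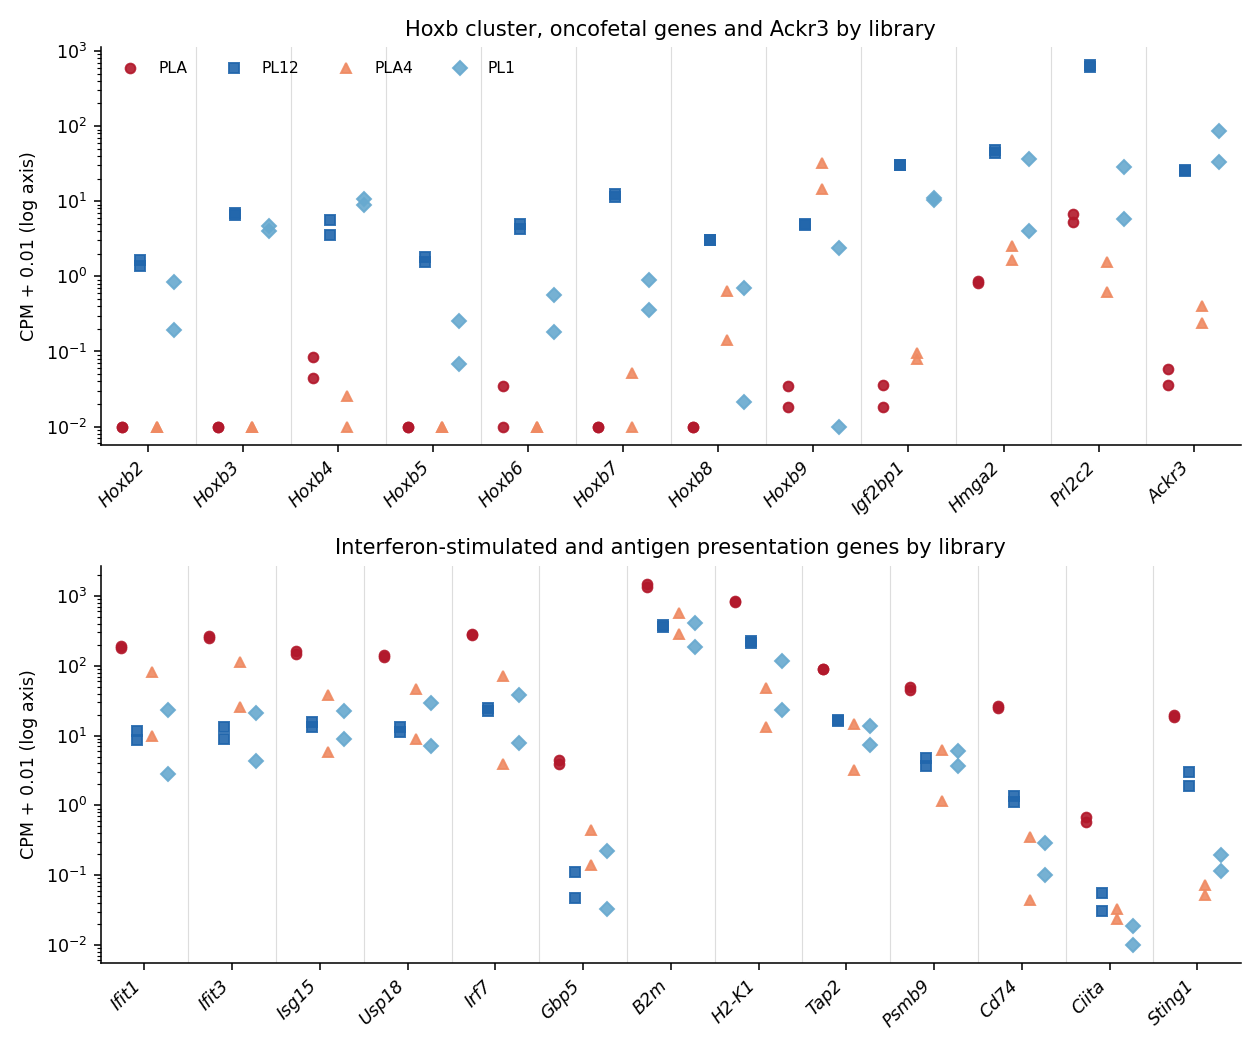
Both panels show CPM plus 0.01 on a log axis, with 1 point for each library of the 4 lines above each gene name. In the upper panel PLA is at or below 0.0731 CPM for Hoxb2 to Hoxb9, Igf2bp1 and Ackr3 while PL12 is above 1 CPM. In the lower panel both PLA libraries are above every other library for each gene drawn, but these genes were chosen with their values known. Members not drawn can differ. Gbp2 read 95.9 and 91.1 CPM in PLA and averaged 96.3 CPM in PLA4, and Samhd1 was lower in PLA than in PL12.

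Genes of DNA replication and mitosis were lower in PLA as a body. Of 36 tested S-phase genes 35 were lower and none was higher, with a median log2 difference of -2.12, and of 34 tested mitosis genes 34 were lower, with a median of -3.24. Mcm6, a subunit of the replicative helicase, read 33.1 and 33.2 CPM in PLA and 170.5 and 165 CPM in PL12 (log2 difference -2.34, SE 0.163, edgeR adjusted p = 0.000519). Cdc6, which loads that helicase at origins, measured 4.81 and 4.26 CPM in PLA and 38.1 and 37.8 CPM in PL12 (log2 difference -3.06, SE 0.146, edgeR adjusted p = 0.000297), and the cyclin gene Ccne2 3.59 and 3.73 CPM in PLA and 42.3 and 37 CPM in PL12. PLA was thus lower for each of the 3, by 5.03-fold for Mcm6, 8.34-fold for Cdc6 and 10.6-fold for Ccne2. Slbp, the histone mRNA binding protein gene, was the member that missed the threshold (log2 difference -0.55, SE 0.193, edgeR adjusted p = 0.066). Among mitosis genes, Ect2, an exchange factor needed for cytokinesis, read 9.9 and 9.6 CPM in PLA and 183 and 156 CPM in PL12 (log2 difference -4.12, SE 0.216, edgeR adjusted p = 0.00031). Kif23, a kinesin of the midbody, was 13.6-fold lower at 15.2 and 14.2 CPM in PLA against 215 and 192 CPM in PL12, and the proliferation marker gene Mki67 9.46-fold lower at 43.4 and 45.8 CPM in PLA against 477 and 397 CPM in PL12. The counts of both lists moved little when libraries were left out, between 31 and 36 for S phase and between 33 and 34 for mitosis. From bulk RNA, fewer cycling cells and less of these RNAs in each cell cannot be told apart.

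PLA was the line with the lowest replication levels of the 4. The mean log2(CPM + 1) of the S-phase genes was 4.12 in both PLA libraries, 6.11 and 6.13 in PL12, 5.18 and 5.61 in PLA4, and 6.01 and 5.68 in PL1. For the mitosis genes it was 3.78 and 3.76 in PLA, 6.93 and 6.84 in PL12, 5.51 and 6.20 in PLA4, and 6.66 and 6.08 in PL1. In the fit of PLA4 minus PL1, 6 S-phase genes and 2 mitosis genes were lower, none was higher, and the medians were -0.43 and -0.51. Both PLA4 libraries lay below both PL1 libraries for 17 of the 36 S-phase and 13 of the 34 mitosis genes, beside 24.1% of all tested genes.

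E2F factors control many S-phase genes through short GC-rich sites near the start of transcription, so the DNA before those starts was searched. In the 250 bases before the gene start, a match to TTTGGCGC, TTTCGCGC or TTTCCCGC on either strand was found for 7 of 29 S-phase genes with a promoter in the RefSeq table (24.1%), 1 of 27 mitosis genes (3.7%) and 1.78% of all 27025 genes in that table. The promoters of Cdc6 and Mcm6, shown because both genes were among the most clearly lower ones and hold such matches, run as follows on the strand of the gene (GRCm38.p6; Cdc6 at chr11:98907901-98908150, plus strand; Mcm6 at chr1:128359706-128359955, minus strand), 5′ to 3′ with the matches in capitals. The gene start is RefSeq's, and GENCODE begins Cdc6 further upstream, so that this window lies inside the gene as GENCODE draws it.
Cdc6: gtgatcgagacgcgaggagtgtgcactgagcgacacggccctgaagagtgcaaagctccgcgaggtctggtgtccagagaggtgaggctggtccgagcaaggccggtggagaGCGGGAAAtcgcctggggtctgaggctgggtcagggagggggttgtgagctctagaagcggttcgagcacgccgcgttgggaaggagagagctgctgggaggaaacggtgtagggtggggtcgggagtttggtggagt
Mcm6: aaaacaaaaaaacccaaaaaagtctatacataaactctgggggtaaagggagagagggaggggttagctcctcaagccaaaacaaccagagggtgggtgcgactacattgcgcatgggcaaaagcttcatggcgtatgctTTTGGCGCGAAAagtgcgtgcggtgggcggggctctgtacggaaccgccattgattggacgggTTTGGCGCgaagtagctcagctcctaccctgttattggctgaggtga
The window of Cdc6 holds 1 match, on the strand opposite to the gene. That of Mcm6 holds 3, of which 2 overlap on opposite strands. A match of letters describes the sequence and does not show that a factor binds there.

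Inhibitors of the cell cycle and p53 target genes moved in both directions. Of 25 tested members, 9 were higher and 4 lower in PLA, or 36% and 16%, beside 20.4% and 17.3% of all tested genes. Gadd45a, a stress-induced growth arrest gene, measured 80.8 and 78.4 CPM in PLA and 16.4 and 17.5 CPM in PL12 (log2 difference 2.23, SE 0.141, edgeR adjusted p = 0.000404). Cdkn1a, which encodes p21, was 1.73-fold higher at 561 and 573 CPM in PLA against 319 and 330.5 CPM in PL12, Cdkn2a 2.39-fold higher at 34.1 and 33.8 CPM in PLA against 12.2 and 15.1 CPM in PL12 and Cdkn2b 2.23-fold higher at 46 and 43.4 CPM in PLA against 19.3 and 20.4 CPM in PL12. The 4 lower members were Cdkn1c, Cdkn2c, Ccng1 and Pmaip1, of which the last 2 are p53 targets like Cdkn1a. The 9 higher calls were 2 without either PLA library and 2 without either PL12 library. In the other pair Cdkn1a had the reverse order, at 144 and 108 CPM in PLA4 and 233 and 247 CPM in PL1.

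Genes that ERK signalling induces were mostly lower in PLA where they passed the test. Of 28 tested, 7 were lower and 1 was higher, or 25% and 3.57%, beside 17.3% and 20.4% of all tested genes. Etv4, an ETS factor downstream of receptor tyrosine kinases, was 23.3-fold lower, at 0.877 and 0.770 CPM in PLA against 17.3 and 20.1 CPM in PL12 (log2 difference -4.50, SE 0.427, edgeR adjusted p = 0.00104). Areg, which encodes the EGF receptor ligand amphiregulin, read 11.4 and 11.6 CPM in PLA and 170.5 and 173 CPM in PL12 (log2 difference -3.90, SE 0.691, edgeR adjusted p = 0.00711), and Spry4, a feedback inhibitor of the pathway, 0.0244 and 0.00846 CPM in PLA and 3.03 and 3.0 CPM in PL12 (edgeR adjusted p = 0.0051). No library of PLA reached the level of a PL12 library for these 3 called genes, as for 39% of all tested genes, which adds nothing to the calls. Egr1, an immediate early gene, was the higher one, at 412 and 444 CPM in PLA against 60.8 and 46.9 CPM in PL12 (edgeR adjusted p = 0.0468), and Dusp6, a phosphatase that ERK induces, read 70.4 and 70.2 CPM in PLA and 78.6 and 73.9 CPM in PL12 (edgeR adjusted p = 0.556). The 7 lower calls were 15 with DESeq2, 13 without the filter on low counts, 2 without either PLA library, 4 without either PL12 library and 14 without either PLA4 library. Etv4, Areg and Spry4 had the same order in PLA4 and PL1, with 0.201 and 0.125 CPM in PLA4 and 10.2 and 5.24 CPM in PL1 for Etv4, 5.72 and 1.17 CPM in PLA4 and 43.5 and 60.6 CPM in PL1 for Areg and 0.0232 and 0 CPM in PLA4 and 0.391 and 1.51 CPM in PL1 for Spry4.

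Interferon-stimulated genes, which cells switch on after interferon binds its receptors, stood higher in PLA. Of 53 tested, 20 were higher and 1 was lower, with a median log2 difference of 2.20. Both PLA libraries were above both PL12 libraries for 51 of the 53, beside 44.1% of all tested genes. Ifit3, an antiviral protein gene whose reads can be shared with its near copy Ifit3b, measured 266 and 252 CPM in PLA and 13.1 and 8.91 CPM in PL12 (log2 difference 4.56, SE 0.993, edgeR adjusted p = 0.0143). Isg15, a ubiquitin-like modifier, read 161 and 149.7 CPM in PLA and 13.4 and 15.8 CPM in PL12 (edgeR adjusted p = 0.0259). PLA was higher by 25.4-fold for Ifit3 and 10.3-fold for Isg15. Gbp5, a guanylate-binding protein gene that interferon-gamma induces, was at 4.39 and 3.91 CPM in PLA and 0.102 and 0.0368 CPM in PL12, 72.8-fold higher, a value that rests on few PL12 counts and was 113-fold without PL12 replicate 1 and 40.55-fold without PL12 replicate 2. Irf7, the factor that amplifies the response, was 12.2-fold higher in these libraries at 284 and 277 CPM in PLA against 24.5 and 22.2 CPM in PL12 but missed the threshold (edgeR adjusted p = 0.075). Samhd1, an enzyme that degrades deoxynucleotides, was the lower member, at 46 and 44.2 CPM in PLA against 104 and 96.9 CPM in PL12.

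How many interferon-stimulated genes were called depended on the libraries used. The count of 20 was 5 or 6 without either PLA library, 3 or 4 without either PL12 library and 35 or 36 without either PLA4 library, 33 with DESeq2 and 34 without the filter on low counts, and it was 50 in the fit on the 4 libraries of PLA and PL12. In the libraries of PLA4 and PL1 these genes varied within the lines: Ifit3 read 114 and 25.3 CPM in PLA4 and 4.28 and 20.9 CPM in PL1, and none of the 53 passed the threshold in PLA4 minus PL1. The interferon-stimulated members averaged, as log2(CPM + 1), 6.06 and 5.99 in PLA, 4.13 and 3.95 in PL12, 4.55 and 2.86 in PLA4, and 2.86 and 4.04 in PL1. The interferon genes Ifnb1, Ifnl2, Ifnl3 and Ifng did not pass the filter on low counts, and none of the 4 exceeded 0.0508 CPM in any library. Among 19 tested genes of nucleic acid sensing and interferon signalling, 6 were higher, among them Sting1 at 19.6 and 18.5 CPM in PLA against 2.99 and 1.91 CPM in PL12 (log2 difference 2.96, SE 0.372, edgeR adjusted p = 0.00232), and Cgas, which makes the messenger that activates STING, was lower at 2.37 and 2.67 CPM in PLA against 10.4 and 8.7 CPM in PL12 (edgeR adjusted p = 0.00171). The 6 were 2 without either PLA library and 2 or 4 without either PL12 library.

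The interferon-stimulated response element, the DNA site through which interferon acts on many of these genes, has a core of GAAA, any 2 bases and GAAA again. It was found on either strand of the 250 bases before the gene start for 17 of 40 interferon-stimulated genes with a promoter in the table (42.5%), for 3 of 21 class I presentation genes (14.3%), and for 3.46% of all 27025 genes. The promoters of Gbp5 and Ifit3, shown because they belong to the members with the largest differences, are given on the strand of the gene (GRCm38.p6; Gbp5 at chr3:142496684-142496933 and Ifit3 at chr19:34583279-34583528, both plus strand), 5′ to 3′, with the matches, which lie on the opposite strand and so begin and end with TTTC, in capitals. GENCODE begins Gbp5 upstream of RefSeq's start, and the Gbp5 window lies inside that longer gene.
Gbp5: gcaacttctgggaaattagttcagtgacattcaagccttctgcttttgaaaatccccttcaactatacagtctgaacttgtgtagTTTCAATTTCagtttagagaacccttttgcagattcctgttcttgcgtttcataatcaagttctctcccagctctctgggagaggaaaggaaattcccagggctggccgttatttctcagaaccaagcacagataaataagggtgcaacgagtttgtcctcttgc
Ifit3: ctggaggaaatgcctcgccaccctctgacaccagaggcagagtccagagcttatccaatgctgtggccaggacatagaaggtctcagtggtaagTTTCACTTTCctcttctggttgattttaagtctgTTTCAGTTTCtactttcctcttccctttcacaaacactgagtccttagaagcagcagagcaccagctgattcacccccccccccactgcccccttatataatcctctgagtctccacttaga
Gbp5 holds 1 match and Ifit3 holds 2. These counts describe the letters of the reference sequence, and the lists were chosen with results known, so nothing is read from them about the factors.

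**Figure D4:**
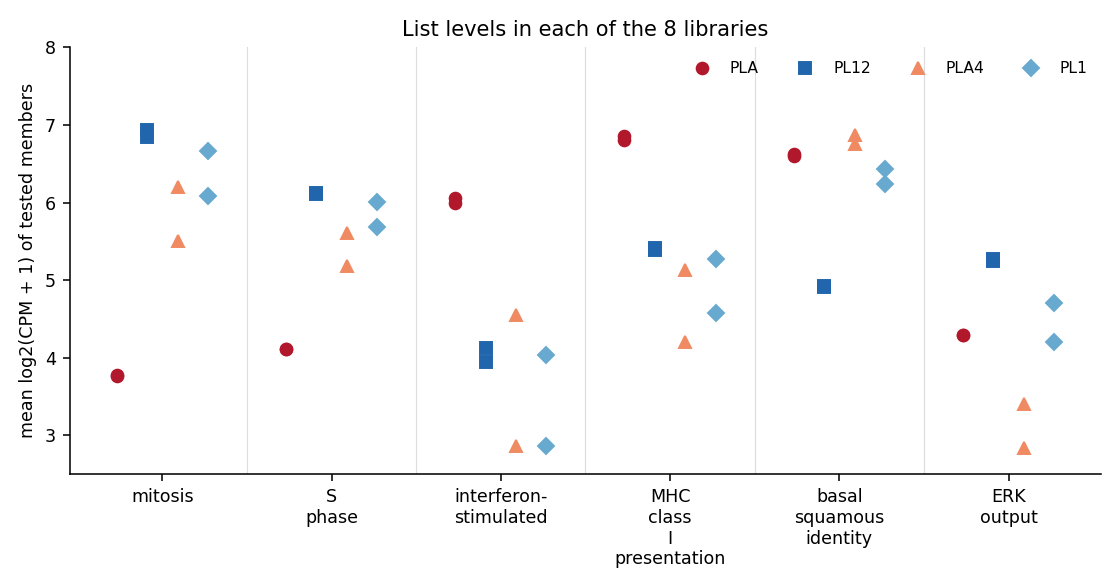
For each of 6 gene lists the vertical axis gives the mean log2(CPM + 1) of its tested members in each of the 8 libraries, 1 point a library. PLA is lowest for S phase and mitosis and highest for the interferon-stimulated and class I presentation genes, while PL12 is lowest for squamous identity.

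Antigen presentation genes were higher in PLA in both classes. Class I molecules show peptides from inside the cell to CD8 T cells, and of 24 tested genes of that route 10 were higher and 1, the chaperone gene Calr, was lower. B2m, the invariant light chain, read 1494 and 1348 CPM in PLA and 383 and 356 CPM in PL12 (log2 difference 1.94, SE 0.459, edgeR adjusted p = 0.0187). H2-T23, a non-classical class I gene, measured 246 and 236 CPM in PLA and 33.4 and 32.1 CPM in PL12 (log2 difference 2.88, SE 0.150, edgeR adjusted p = 0.00031), and Psmb9, an immunoproteasome subunit, 49.3 and 45.1 CPM in PLA and 3.64 and 4.71 CPM in PL12 (edgeR adjusted p = 0.0136). The folds were 3.90 for B2m, 7.41 for H2-T23 and 10.8 for Psmb9, all with PLA above PL12. The classical gene H2-K1 was 3.81-fold higher, at 852 and 809 CPM in PLA against 228 and 214 CPM in PL12, but missed the threshold (edgeR adjusted p = 0.117), and reads of the H2 genes can be shared between near copies. The count of 10 was 2 or 3 without either PLA library and 2 or 3 without either PL12 library. H2-T23 was the member of this list that was also called higher in PLA4 than in PL1, with 223 and 176 CPM in PLA4 and 73 and 75.7 CPM in PL1 (edgeR adjusted p = 0.00623).

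Class II molecules present peptides from outside the cell and are usually made by professional antigen-presenting cells. Of 9 tested class II genes, 7 were higher in PLA and none lower. H2-Ab1 read 30.6 and 28.9 CPM in PLA and 1.99 and 1.93 CPM in PL12 (log2 difference 3.92, SE 0.257, edgeR adjusted p = 0.000457), and Cd74, the invariant chain, 26.4 and 24.9 CPM in PLA and 1.37 and 1.09 CPM in PL12 (edgeR adjusted p = 0.0138). Ciita, the transactivator that controls the class II genes, was low in both lines, at 0.666 and 0.576 CPM in PLA and 0.0205 and 0.0459 CPM in PL12. The count of 7 was 3 or 4 without either PLA library and 3 without either PL12 library. In the other pair H2-Ab1 had the reverse order, at 7.22 and 7.5 CPM in PLA4 and 14.9 and 23.7 CPM in PL1. Markers of immune cells read beside these values were mixed. Ptprc, which encodes the pan-leukocyte protein CD45, was at 0 in PLA and at most 0.0205 CPM in PL12, and Adgre1, Lyz2 and Tyrobp were no higher than that. Itgam, an integrin subunit gene of myeloid cells, was higher in PLA together with the class II genes, at 51.5 and 48.1 CPM in PLA against 1.0 and 0.680 CPM in PL12 (edgeR adjusted p = 0.00271), as was Laptm5, at 2.75 and 2.87 CPM in PLA against 0 and 0 CPM in PL12 (edgeR adjusted p = 0.0111). The macrophage marker Cd68 read 29 and 27.2 CPM in PLA and 9.58 and 7.11 CPM in PL12 but missed the threshold (edgeR adjusted p = 0.161), and Csf1r was lower at 3.44 and 4.19 CPM in PLA against 12.3 and 11.1 CPM in PL12 (edgeR adjusted p = 0.0421). The part of immune cells in the class II levels was not tested.

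Ligands for T and natural killer cells changed in both directions. Of 17 tested, 6 were higher and 4 lower in PLA, or 35.3% and 23.5%, beside 20.4% and 17.3% of all tested genes. Cd80, a costimulatory ligand, read 81.7 and 80.2 CPM in PLA and 5.81 and 5.05 CPM in PL12 (log2 difference 3.90, SE 0.143, edgeR adjusted p = 0.000291), and Cd274, which encodes PD-L1, 14.4 and 14.7 CPM in PLA and 1.27 and 1.12 CPM in PL12 (log2 difference 3.61, SE 0.510, edgeR adjusted p = 0.00326). Both were more than 10 times higher in PLA. The NKG2D ligand genes were divided, since H60c was 12.5-fold higher at 95 and 90.2 CPM in PLA against 8.45 and 6.94 CPM in PL12 while Ulbp1 was 4.19-fold lower at 32.6 and 31.8 CPM in PLA against 149 and 129 CPM in PL12. Pvr, which encodes a ligand of TIGIT and DNAM-1, was lower as well, at 10.4 and 9.73 CPM in PLA against 44.4 and 44.8 CPM in PL12. H60c and Ulbp1 kept their order in the other pair, at 25.8 and 80.9 CPM in PLA4 and 2.14 and 1.92 CPM in PL1 for H60c and 3.41 and 2.05 CPM in PLA4 and 210.0 and 125 CPM in PL1 for Ulbp1. The 6 higher calls were 3 without either PLA library and 3 without either PL12 library, and the 4 lower calls 1 or 2 without either PLA library.

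Among 28 tested chemokine and cytokine genes 5 were higher and 4 lower in PLA. These are 17.9% and 14.3%, below the 20.4% and 17.3% of all tested genes. The neutrophil chemokine gene Cxcl5 had the largest fall in CPM of any called gene, at 2459 and 2390 CPM in PLA against 6680 and 6593 CPM in PL12 (log2 difference -1.45, SE 0.287, edgeR adjusted p = 0.0102). Il1a, an alarmin cytokine gene, read 150.0 and 144 CPM in PLA and 514 and 404 CPM in PL12 (edgeR adjusted p = 0.00922), and Ptgs2, which encodes cyclooxygenase-2, 215 and 210.0 CPM in PLA and 1036 and 889.6 CPM in PL12 (edgeR adjusted p = 0.01). PLA was lower for the 3, by 2.73-fold to 4.40-fold. Tnf was 36-fold higher at 54.6 and 53.5 CPM in PLA against 1.74 and 1.4 CPM in PL12 (log2 difference 5.11, SE 0.422, edgeR adjusted p = 0.000776), and the T cell chemokine gene Ccl5 47.1-fold higher at 87.3 and 81.8 CPM in PLA against 1.86 and 1.76 CPM in PL12 (edgeR adjusted p = 0.00921). Vegfa, the angiogenic factor, was higher at 791 and 792 CPM in PLA against 199.6 and 197 CPM in PL12. The 5 higher calls were 3 without either PLA library and 2 without either PL12 library, and the 4 lower calls 0 without either PLA library, 0 or 2 without either PL12 library and 8 without either PL1 library. Cxcl5, Il1a and Ptgs2 were lower in PLA4 than in PL1 too, with 470.2 and 699 CPM in PLA4 and 1599 and 2435 CPM in PL1 for Cxcl5, while Tnf and Ccl5 read 12.9 and 6.97 CPM in PLA4 and 15.1 and 25.3 CPM in PL1 and 18.2 and 1.72 CPM in PLA4 and 74.5 and 61.8 CPM in PL1, respectively, without that rise.

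Metabolic and stress genes were divided by pathway. NRF2, the factor that answers oxidants and electrophiles, has targets in glutathione and NADPH metabolism, and of 31 tested targets 12 were higher and 2 lower in PLA. Gsta3, a glutathione transferase gene of a family with close copies, measured 195 and 184 CPM in PLA and 11.6 and 11.3 CPM in PL12 (log2 difference 4.05, SE 0.214, edgeR adjusted p = 0.00031). G6pdx, the entry enzyme of the pentose phosphate pathway, read 508 and 504 CPM in PLA and 174 and 162 CPM in PL12 (log2 difference 1.59, SE 0.145, edgeR adjusted p = 0.00092), and the aldehyde dehydrogenase gene Aldh3a1 131 and 127 CPM in PLA and 15.1 and 15 CPM in PL12 (edgeR adjusted p = 0.00091). PLA was higher for these 3, by 3.06-fold to 16.6-fold, whereas Txnrd1, thioredoxin reductase, was lower at 129 and 131 CPM in PLA against 316 and 314 CPM in PL12. Of 25 tested ATF4 targets, which respond to amino acid shortage and other stress, 8 were higher and 2 lower. Pycr1, an enzyme of proline synthesis, was 4.97-fold higher at 24.9 and 23.8 CPM in PLA against 4.91 and 4.91 CPM in PL12 (edgeR adjusted p = 0.00091), and the lower pair was Psat1 and Phgdh of serine synthesis, with Phgdh at 122 and 122 CPM in PLA against 255 and 284 CPM in PL12. The 12 NRF2 calls were 5 without either PLA library and 4 without either PL12 library, and the 8 ATF4 calls 3 without either PLA library, 3 without either PL12 library and 14 or 15 without either PL1 library. DESeq2 and the fit without the filter on low counts each called 13 ATF4 targets higher.

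Of 21 tested endoplasmic reticulum chaperones, 4 were lower, a share of 19% that is close to the 17.3% of all tested genes, led by Hsp90b1 at 637 and 610.1 CPM in PLA against 1912 and 1581 CPM in PL12 (log2 difference -1.49, SE 0.262, edgeR adjusted p = 0.00696) and Manf at 69.9 and 66.7 CPM in PLA against 194 and 198 CPM in PL12, and higher for 1, Dnajb9. The 4 were 9 with DESeq2, 7 without the filter on low counts, 2 without either PLA library, 7 or 8 without either PLA4 library and 8 or 9 without either PL1 library. Sterol and fatty acid synthesis had 8 lower and 5 higher calls among 30 tested genes. The shares were 26.7% lower and 16.7% higher, beside 17.3% and 20.4% of all tested genes. Idi1, an isoprenoid isomerase of sterol synthesis, read 92.4 and 83.7 CPM in PLA and 287 and 257 CPM in PL12 (log2 difference -1.63, SE 0.193, edgeR adjusted p = 0.00193), while Acsl3, an acyl-CoA synthetase gene, was higher at 224 and 215 CPM in PLA against 89 and 74.7 CPM in PL12. The 8 were 3 without either PLA library and 3 without either PL12 library. Glycolysis genes split 4 to 4 among 31 tested, or 12.9% each way, below the shares of all tested genes. Pkm, pyruvate kinase, was at 836 and 813 CPM in PLA and 1908 and 2040 CPM in PL12. The lactate exporter gene Slc16a3 was at 11.6 and 11.1 CPM in PLA and 0.184 and 0.276 CPM in PL12. Oxidative phosphorylation genes had 3 higher and 5 lower calls of 27, or 11.1% and 18.5%, beside 20.4% and 17.3% of all tested genes. The largest was Uqcrfs1, a complex III subunit, with 71.9 and 73.6 CPM in PLA and 151 and 141 CPM in PL12. The glycolysis calls fell to 0 to 2 in either direction, and the oxidative phosphorylation calls to 0 to 2, without either PLA or either PL12 library, and the glycolysis calls were 6 to 8 in either direction without either PLA4 library.

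**Figure D5:**
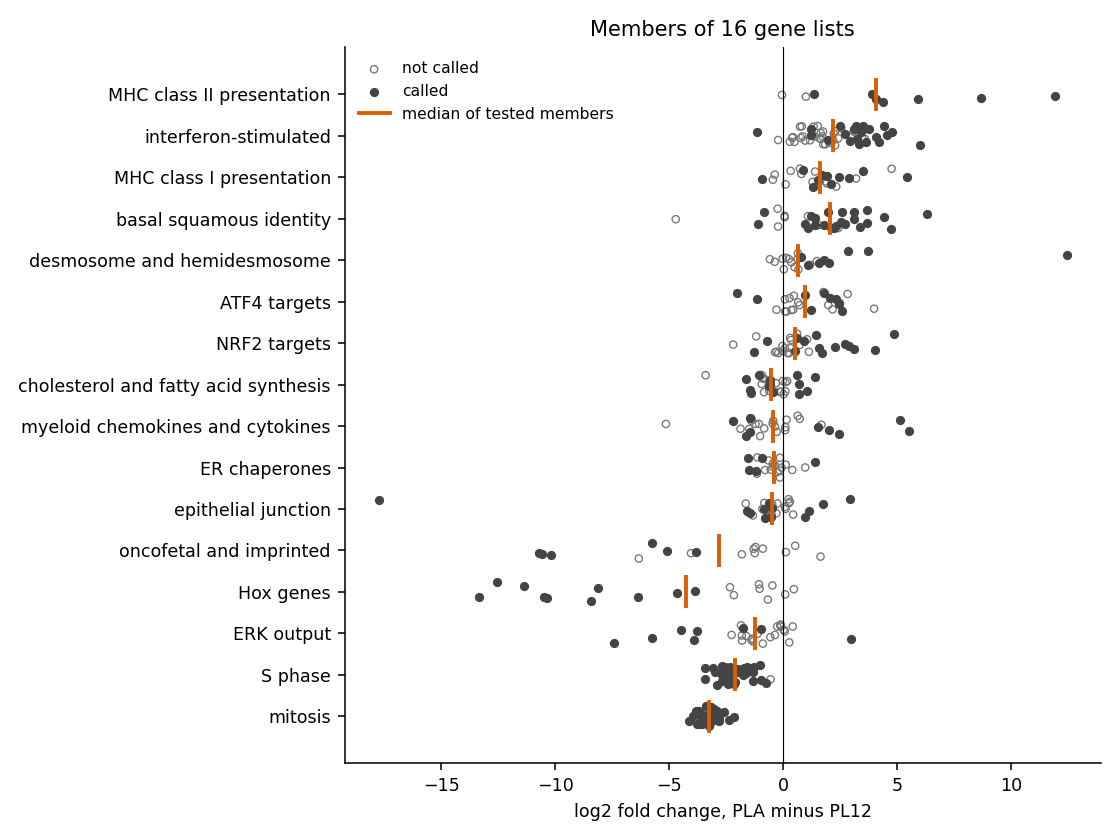
Each point is a tested member of the gene list named on the vertical axis, placed at its log2 difference, PLA minus PL12, with called members filled, uncalled ones open and the median of the list as a bar. The S-phase and mitosis members lie to the left of 0, most squamous and class II members lie to the right, and the metabolic lists straddle 0.

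Ligands and targets of the growth factor pathways differed gene by gene. Of 23 tested Wnt pathway genes 7 were higher and 6 lower, or 30.4% and 26.1%, beside 20.4% and 17.3% of all tested genes. Wnt4 read 306 and 327 CPM in PLA and 44.6 and 42.8 CPM in PL12 (log2 difference 2.86, SE 0.130, edgeR adjusted p = 0.000292), whereas Wnt7a, a ligand of lung and Müllerian epithelium, read 0.195 and 0.152 CPM in PLA and 36.6 and 38.1 CPM in PL12 (log2 difference -7.74, SE 0.266, edgeR adjusted p = 0.000297), and the feedback target Axin2 was below 1 CPM in all 4 libraries. Of 27 tested TGF-beta family genes 5 were higher and 7 lower, or 18.5% and 25.9%, beside 20.4% and 17.3% of all tested genes. Bmp7 was higher, at 16.8 and 14.9 CPM in PLA against 1.0 and 0.689 CPM in PL12. Fst, which encodes the activin trap follistatin, was lower, at 20.9 and 20.8 CPM in PLA against 250.4 and 238 CPM in PL12 (log2 difference -3.55, SE 0.242, edgeR adjusted p = 0.000502). The activin subunit gene Inhba was lower too, at 15.9 and 14.9 CPM in PLA against 314 and 278 CPM in PL12 (edgeR adjusted p = 0.0198). Of 23 tested YAP and TEAD genes 6 were higher and 6 lower, or 26.1% each way, beside 20.4% and 17.3% of all tested genes. The TEAD factor gene Tead2 was close to absent from PLA, at 0.0569 and 0.0931 CPM in PLA and 13.6 and 15.8 CPM in PL12 (log2 difference -7.59, SE 0.376, edgeR adjusted p = 0.00031). Tead2 did not show this in the other pair, at 2.9 and 3.01 CPM in PLA4 and 2.24 and 1.79 CPM in PL1. Without either PLA or either PL12 library, 1 to 3 of the TGF-beta members, 3 or 4 of the Wnt members and 3 or 4 of the YAP members were still called lower, and 4, 3 and 2 members, in that order, were called higher. The 6 lower Wnt calls were 1 with limma on log2(TPM + 1) and 3 on log2(TPM + 0.1). The 7 lower TGF-beta calls were 11 without either PL1 library.

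Among 24 tested integrin genes 5 were higher and 3 lower. These are 20.8% and 12.5%, no more than about the 20.4% and 17.3% of all tested genes. Itga2, a collagen receptor subunit, was 6.0-fold lower at 185 and 189.7 CPM in PLA against 1275 and 1058 CPM in PL12 (edgeR adjusted p = 0.0126), and Itga5, the fibronectin receptor subunit, 3.49-fold higher at 45.2 and 43.8 CPM in PLA against 13.4 and 12.4 CPM in PL12 (log2 difference 1.78, SE 0.147, edgeR adjusted p = 0.000777). Itgam, which encodes the leukocyte integrin subunit CD11b, read 51.5 and 48.1 CPM in PLA and 1.0 and 0.680 CPM in PL12 (log2 difference 5.90, SE 0.781, edgeR adjusted p = 0.00271), and Itgb7, another leukocyte subunit, 53.6 and 56 CPM in PLA and 2.6 and 3.25 CPM in PL12. The 5 were 3 without either PLA library and 3 without either PL12 library.

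Markers of other cell types were measured beside these results. Of 23 immune markers 14 were under 1 CPM in all 4 libraries, and Cd3e and Tyrobp were at 0 in each. The summed immune level was 204.6 and 196.7 CPM in PLA and 203 and 205.6 CPM in PL12, of which Cd14, at 115 and 111 CPM in PLA and 175 and 179.9 CPM in PL12, was the largest part. Among the 10 tested, 4 were higher, including Itgam, and 4 lower, including S100a8. All 15 fibroblast markers were under 1 CPM in the pair, and their sum was 1.09 to 1.66 CPM. Endothelial markers summed to 3.44 to 4.72 CPM, with Pecam1 at 1.02 and 1.13 CPM in PLA and 0.0614 and 0.0919 CPM in PL12, while Cldn5, Tie1 and Erg were at 0. Mesothelial markers summed to 1048 and 1051 CPM in PLA and 1609 and 1870 CPM in PL12, most of it Krt19, a keratin of many epithelia, and Msln. Bnc1, a basonuclin gene of squamous epithelium and mesothelium, was higher in PLA at 108 and 105 CPM in PLA against 13 and 12 CPM in PL12 (edgeR adjusted p = 0.00447), while the defining genes Wt1 and Upk3b were at or under 0.0614 CPM and Calb2 was at 0.

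The other pair of lines, PLA4 and PL1, shares no library with PLA and PL12, but its calls borrow their spread from the same fit. In PLA4 minus PL1, 860 genes were higher and 733 lower, or 4.61% and 3.93% of those tested. From its own 4 libraries alone the counts were 3 and 6, and without either PLA or either PL12 library they were 126 to 139 and 73 to 83. Of the 2511 genes at least 2-fold higher in PLA than in PL12, both PLA4 libraries were above both PL1 libraries for 990 (39.4%) and below them for 400 (15.9%). The shares over all tested genes were 25.2% and 24.1%. Of the 2183 genes at least 2-fold lower, both PLA4 libraries were below for 764 (35%) and above for 360 (16.5%). Called higher in both pairs were 411 genes, which is 10.8% of the calls in PLA minus PL12 and 47.8% of those in PLA4 minus PL1. Called lower in both were 267 genes, 8.26% and 36.4%. Opposite calls were made for 240 genes.

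With at least 2-fold and a mean of at least 5 CPM in both pairs, 124 genes were higher and 55 lower. Next to Ly6k, at 97.2 and 6.1 CPM in PLA4 and 0 and 0 CPM in PL1, the largest common rises were Slc16a3, Hacd4, Ablim3, Gabrp and H60c. Hacd4, an enzyme of very long chain fatty acid synthesis, read 17.7 and 18.1 CPM in PLA and 0.798 and 0.607 CPM in PL12 and 21.1 and 5.14 CPM in PLA4 and 0.380 and 0.564 CPM in PL1. Ablim3, an actin-binding protein gene, read 60.6 and 63.3 CPM in PLA and 0.409 and 0.524 CPM in PL12 and 5.2 and 13.9 CPM in PLA4 and 0.575 and 0.758 CPM in PL1. For Ly6k, Hacd4 and Ablim3 no library of PL12 or PL1 reached a library of PLA or PLA4. They were picked as large rises in both pairs, so this adds nothing to the calls. Over all tested genes, both PLA libraries were above both PL12 libraries for 44.1%, and both PLA4 libraries above both PL1 libraries for 25.2%. The largest common falls besides Ackr3 were Igf2bp1, Neurl3, Prl2c2, Areg and Il18rap. Neurl3, a ubiquitin ligase gene, read 7.64 and 7.56 CPM in PLA and 156 and 159 CPM in PL12 and 0.194 and 0.0692 CPM in PLA4 and 7.99 and 20.4 CPM in PL1, and Il18rap, a subunit of the interleukin-18 receptor, 6.43 and 7.19 CPM in PLA and 52.5 and 42.8 CPM in PL12 and 3.57 and 5.2 CPM in PLA4 and 40.4 and 26.3 CPM in PL1. Prl2c2, a placental prolactin-family gene with near-identical copies, read 6.66 and 5.26 CPM in PLA and 602 and 641 CPM in PL12 and 1.56 and 0.616 CPM in PLA4 and 28.6 and 5.76 CPM in PL1, so for Neurl3 and Prl2c2 the levels in PL1 were far below those in PL12.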

How the data were processed

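Bulk RNA-seq of 8 libraries, 2 from each of 4 mouse lines, was analysed; PLA and PL12 supply 4 of them. The deposited table holds expected counts per gene that the authors estimated, per the submitters' processing notes with STAR and RSEM on GRCm38 (versions not given in the sources used here; DESeq2 and FastQC are also named there), and 14.2% of its values are not whole. A second deposited table holds TPM from the same estimation. Estimated counts share reads between near-identical genes, so members of such families are uncertain, and no source used here says whether counting used strand, so overlapping genes on opposite strands cannot be told apart.

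Expected counts were rounded, filtered with edgeR's filterByExpr (minimum count 10, minimum total 15), scaled by TMM and tested with edgeR 4.0.16 (glmQLFit, glmQLFTest; R 4.3.3), with 1 mean for each line over all 8 libraries and 4 residual degrees of freedom. Benjamini-Hochberg adjustment ran over all 18648 genes, and a gene was called at an adjusted p under 0.05. CPM are on TMM-scaled library sizes, and a fold is the ratio of summed counts over these sizes. Where a line had no count, the fold is a bound at 3 counts over its 2 libraries. The script was tested on simulated counts for 18648 genes, of which 100 were changed 2-fold and 100 were changed 4-fold. There edgeR recovered 2% of the 2-fold and 66% of the 4-fold changes, with 4 false calls. DESeq2 recovered 39% and 89%, with 84 false calls. Far fewer genes changed there than were called here, so these shares need not hold here. A gene that missed the threshold may still differ.

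Alternatives were DESeq2 1.42.0, its size factors in edgeR, no filter, the 4 libraries of a pair alone, a replicate block, limma 3.58.1 on log2(TPM + 1) and log2(TPM + 0.1) computed from the deposited TPM of genes at 1 TPM or more in 2 libraries, and each library left out. Same-numbered PLA and PL12 libraries did not deviate together (r = -0.1641 across genes), so the numbers were not used as a block. Promoters are RefSeq's on GRCm38.p6, and gene positions are GENCODE's on GRCm38, matched for 55141 of 55487 gene IDs.

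Genes named are Ackr3 and Stk11, the 15 called genes furthest apart in each direction (plain symbols, averaging 5 CPM or above over the pair), the 6 largest shared with PLA4 minus PL1 in each direction, the 4 largest CPM differences in each direction, and, for each of 33 gene lists, the 4 members with the smallest p and those needed to say what the list is. Some genes that this rule picked are not reported here. Other members given with values were chosen after their values were seen. The pair, the lists and their members were chosen with earlier results of these data known.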

Additional observations from a re-analysis of the deposited data

Results flagged for a closer look

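The effect in PLA minus PL12 differed from that in PLA4 minus PL1, by a test of the difference in the same edgeR fit at an adjusted p under 0.05, for 3872 of 18648 genes, or 20.8%. The 8 genes below are those of the gene lists and of the naming rule that were called in opposite directions in the 2 pairs.

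Cdkn1c, an imprinted inhibitor of cyclin-dependent kinases, read 0 and 0.00846 CPM in PLA, 6.02 and 6.20 CPM in PL12, 0.410 and 0.215 CPM in PLA4 and 0.0115 and 0.0353 CPM in PL1. Its log2 differences were -10.17 in PLA minus PL12 and 3.62 in PLA4 minus PL1, and the difference of the effects was -13.79 (edgeR adjusted p = 0.00199). With 1 count in PLA these fitted values depend on the prior count: the log2 ratio of the PLA and PL12 means was -10.49, and -9.49 without PLA replicate 1. H2-Ab1, a class II chain, had effects of 3.92 and -1.39, and a difference of 5.32 (edgeR adjusted p = 0.000961).

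Lor, which encodes loricrin, read 0.195 CPM in both PLA libraries, 1.68 and 2.17 CPM in PL12, 1.46 and 2.87 CPM in PLA4 and 0.426 and 0.643 CPM in PL1, and its effects differed by -5.31 (edgeR adjusted p = 0.00543). Xlr3a, an X-linked gene with close copies, read 19.4 and 18 CPM in PLA, 0 in both PL12 libraries, 0.0387 and 0.0346 CPM in PLA4 and 13.9 and 24.8 CPM in PL1. Its fitted difference of effects, 23 (edgeR adjusted p = 0.000658), rests on libraries without a count and depends on the prior count.

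Tnc, the gene of the matrix protein tenascin C, read 38.1 and 35.7 CPM in PLA, 149.9 and 133 CPM in PL12, 1640 and 1477 CPM in PLA4 and 85.9 and 40.6 CPM in PL1, and its effects differed by -6.56 (edgeR adjusted p = 0.00171). Nkd2, which encodes an inhibitor of Wnt signalling, had effects of -2.89 and 3.05 that differed by -5.95 (edgeR adjusted p = 0.00661), and its 2 PLA4 libraries stood apart at 105.8 and 30.3 CPM. Cdkn1a, the gene of the p21 cell cycle inhibitor, had effects of 0.80 and -0.93, and a difference of 1.73 (edgeR adjusted p = 0.00652). Twist2, a mesenchymal transcription factor gene, read 0.821 and 0.694 CPM in PLA, 0.0614 and 0.0276 CPM in PL12, 0.0232 and 0 CPM in PLA4 and 0.322 and 1.81 CPM in PL1. Its fitted difference of effects, 10.62 (edgeR adjusted p = 0.0122), rests on few counts and depends on the prior count.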

How the results depend on the processing

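Of 166 named genes 159 were called in PLA minus PL12. Alternatives numbered 16, or 14 for 6 of the 159 genes that failed the filter of the 2 limma settings. Of the 159, 110 were called in every setting that tested them, 49 missed the threshold in at least 1, and none reversed. The 3804 higher and 3231 lower calls were 6212 and 6204 from the libraries of PLA and PL12 alone, where 2 residual degrees of freedom hold only their small spread. The 2183 lower calls of at least 2-fold were 1369 with limma on log2(TPM + 1) and 1546 on log2(TPM + 0.1), which also change the tool, the measure and the filter; the cause was not tested. Leaving out 1 library at a time gave 1282 to 4671 higher and 1170 to 4211 lower calls, and 1153 to 2831 and 1080 to 2605 of at least 2-fold. The low ends came without a PLA or PL12 library, when the remaining library was assumed to vary like the other lines.

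For PLA4 minus PL1, the 860 higher and 733 lower calls were 1988 and 1813 with DESeq2 and 3 and 6 from their own 4 libraries, and leaving out 1 library gave 126 to 1551 and 73 to 1110. The cause was not tested. With the replicate number as a block, PLA minus PL12 had 3231 higher and 2721 lower calls, and PLA4 minus PL1 had 323 and 224. The crossed pairing, added after seeing the data because same-numbered libraries deviated in opposite directions, gave 3415 and 2914, and 463 and 350. DESeq2's size factors moved the median log2 difference by -0.049. Depth limits genes near 0.0208 to 0.0614 CPM, where 3 counts are the floor.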

Other observations

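Genes of chromosome 13 were lower in PLA more often than those of any other chromosome, a pattern noticed after the values were seen. Of 393 genes there with a mean of at least 5 CPM, 190 were called lower (48.3%) and 33 higher (8.4%), beside 20.4% and 25% over all 10682 such genes, and the median log2 difference was -0.61. The medians of the other chromosomes lay between -0.18 and 0.24. On chromosome 13 the median log2 ratio of PLA was -0.47 to PL1 and -0.69 to PLA4, whereas that of PL12 was 0.08 to PL1 and -0.06 to PLA4.

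Further families were picked after their values were seen. Fmo1 and Fmo2, flavin monooxygenase genes whose enzymes oxidize drugs and other foreign compounds, were higher in PLA, with a mean of 168 CPM against 1.83 CPM for Fmo1 and 147 CPM against 0.909 CPM for Fmo2. Of 11 tested genes of the prolactin family, which the placenta expresses, 7 were lower and none higher, and Prl2a1 measured 0.179 and 0.161 CPM in PLA against 44.6 and 49.5 CPM in PL12. Prl2c2 of this family lies on chromosome 13, and reads of its near copies cannot be assigned with certainty. Of 79 ribosomal protein genes 12 were lower (15.2%, beside 17.3% of all tested genes) and 1, Rpl22, was higher. Their median log2 difference was -0.35, and the median in PLA4 minus PL1 was -0.37.

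The Y-linked gene Ddx3y read 14.9 and 14.3 CPM in PLA, 5.26 and 3.61 CPM in PL12, 78.8 and 86.1 CPM in PL1, and 0.0155 and 0.00692 CPM in PLA4. Xist, which silences an X chromosome in female cells, read 208 and 385 CPM in PLA4 and at most 0.246 CPM in each library of the other 3 lines.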
